A study of Mus musculus with 6 samples.

Results

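The genes Cpne8, Gprc5c, Penk, Cck and Foxo6, were followed in embryos that lack Paraxis. All 8 probes that carry their names were taken, out of 41174 gene probes on the array, and all 8 passed the filter on dim probes. The 5 genes stand against 19335 genes tested. They were picked by their measured ratios, as higher in Paraxis-/- than in WT tissue in all 3 pairs of pools, so their levels and ratios are given below as a description, with no test. Higher in all 3 pairs were 13.5% of the genes with 3 pairs (2608 of 19262). The lowest of the 3 pair ratios was smallest for Cck (0.47 on the log2 scale), and 23 genes had a lowest pair at or above that value. By this measure Cpne8 ranked 4, Gprc5c 8, Penk 11, Foxo6 12 and Cck 23 of 19262. The gene just outside by this measure, at rank 24, had 0.4666, against 0.471 for Cck, and the genes of higher rank that are not named here were not taken into the group.

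The study compared the anterior presomitic mesoderm and somites I to IV of mouse embryos at embryonic day 9.5, the unsegmented tissue that forms somites and the 4 newest somites. The groups were Paraxis-/- embryos, which lack both working copies of the gene now called Tcf15, and WT embryos, both of strain C57BL/6J. Each pool held the tissue of 5 embryos of 1 genotype, with 3 pools of each, and each pool was hybridised with its partner of the other genotype on a pair of two-colour Agilent arrays with the dyes exchanged, giving 6 arrays. Pairs are named after the WT pool, so pair B holds Paraxis-/- pool C and pair C holds Paraxis-/- pool B. Which part of Tcf15 the null allele lacks is not given in the labels, and a pool hides differences between its embryos.

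Paraxis is a basic helix-loop-helix transcription factor that paraxial mesoderm needs to turn into epithelial somites, and such factors bind the E box, CANNTG. The 5 genes come from separate families, and Penk and Cck both encode peptide precursors. Cpne8 encodes a copine, a calcium-dependent phospholipid-binding protein, and Gprc5c an orphan receptor of the family first found as retinoic acid-induced genes. Penk encodes the precursor of the enkephalins, opioid peptides cut out at pairs of basic residues, and has been described in embryonic mesoderm of rodents. Cck encodes the precursor of cholecystokinin, a gut hormone and neuropeptide, and Foxo6 a forkhead factor of the FoxO family that is known mainly from the developing brain.

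Because the results turn on how probes of the same gene compare, 2 of the probes are shown, both lying in coding sequence. The second probe of Cpne8 starts at base 230 of its transcript and spans 678 bases of the genome for its 60 bases, so it crosses an intron (mm9, chr15:90479028-90479705, minus strand). The second probe of Penk starts at base 577 of its transcript (mm9, chr4:4061458-4061517, minus strand). Its capitals mark a stretch of 18 bases that occurs in 2 copies whose starts lie 21 bases apart. Each copy encodes a Met-enkephalin, so this probe lies in the peptide repeats of the precursor.
Cpne8 probe 2: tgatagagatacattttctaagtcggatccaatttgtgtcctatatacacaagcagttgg
Penk probe 2: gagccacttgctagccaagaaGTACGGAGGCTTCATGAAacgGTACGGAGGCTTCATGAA
The other probes are given by position only. The first Cpne8 probe lies at base 3213 of its transcript (mm9, chr15:90317963-90318022, minus strand), and the first Penk probe at base 1300 (chr4:4060735-4060794, minus strand). The Cpne8 probes are annotated to different transcript records, the Penk probes to the same one. The Gprc5c probes belong to different transcript variants, the first to variant 2 at base 1955 (chr11:114730346-114730405, plus strand) and the second to variant 1 at base 3259 (chr11:114733214-114733273, plus strand). Cck and Foxo6 have 1 probe each, at base 510 (chr9:121399031-121399090, minus strand) and base 2463 (chr4:119939688-119939747, minus strand). The first Gprc5c probe and the Foxo6 probe hold the polyadenylation hexamer AATAAA, with 13 and 11 bases after it. No member probe shared a run of more than 15 bases with a probe of another gene.

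The arrays carried 43379 gene spots, of which between 27080 and 31795 per channel were well above background. The labels were checked on Tcf15 itself, which had a log2 ratio of -5.41 (limma adjusted p = 0.0005326), lower in Paraxis-/- in 3 of 3 pairs. Without pair B its ratio was -5.37 and its adjusted p 0.0868. All 14 genes with a probe on a list of paraxial mesoderm and somite markers were detected in both genotypes. In the fit across all genes 4 of 19335 genes passed an adjusted p of 0.05 (0.0207%). Slide 1 carried pair A and slide 2 the other pairs, so the values of each pair given below are also the values within a slide. A change in a bulk pool can be fewer cells of a type or less RNA per cell, and the arrays cannot tell these apart.

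Among the intracellular and receptor genes, Cpne8 was about 2-fold higher in Paraxis-/- tissue by its brighter probe. Its log2 level, after loess and Aquantile normalization, was 8.01, 8.17 and 8.31 in the Paraxis-/- pools of pairs A, B and C, against 7.00, 7.20 and 7.24 in the WT pools. The lowest Paraxis-/- pool lay 0.77 above the highest WT pool. The pair ratios were 1.01, 0.97 and 1.07 (mean 1.02 ± 0.05, SD, n = 3 pairs), a fold of 2.03. Cpne8 had the tightest ratios of the 5 genes. It was dim: its spots read 63 to 466 intensity units, 1.89 to 12.26 times their local background. In WT alone they reached 1.89 to 4.27 times local background. In pair B the raw intensity was 466 in Paraxis-/- and 63 in WT where Paraxis-/- carried Cy5, and 153 in Paraxis-/- and 183.5 in WT where it carried Cy3. After loess these arrays gave ratios of 1.28 and 0.67. The ratio was 1.74 from Agilent's processed signals and 1.73 from the authors' deposited table of log10 ratios, turned to log2.

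The second Cpne8 probe gave 7.51, 7.43 and 7.35 in Paraxis-/- pools, against 6.72, 6.71 and 6.74 in WT pools. Its pools did not overlap either, and its pair ratios of 0.79, 0.72 and 0.60 averaged 0.70 ± 0.10 (SD, n = 3 pairs). It was detected on 6 of 6 Paraxis-/- and 5 of 6 WT measurements, and its spots reached 1.74 to 5.56 times local background.

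Gprc5c was well above background on all measurements, with spots of 561 to 2854 intensity units on its first probe. That probe read 10.710, 10.707 and 10.704 in Paraxis-/- pools, against 9.78, 10.04 and 10.06 in WT pools. Paraxis-/- pools thus lay closely together (SD 0.003) while WT pools spread more (SD 0.16), and the groups were 0.64 apart. The pair ratios were 0.93, 0.66 and 0.64 (mean 0.74 ± 0.16, SD, n = 3 pairs), a fold of 1.68. In pair A, with the largest ratio, the WT pool was the lowest of the 3. The arrays of pair A differed, with 1.21 where Paraxis-/- carried Cy5 and 0.65 where it carried Cy3. Those of pairs B and C gave 0.61 to 0.675, so the larger ratio of pair A rests on 1 array. The second Gprc5c probe, on the other transcript variant, gave 9.92, 9.40 and 9.49 in Paraxis-/- pools, against 9.46, 9.25 and 9.31 in WT pools. Here the groups overlapped, since the lowest Paraxis-/- pool lay 0.06 below the highest WT pool. Its pair ratios were 0.46, 0.16 and 0.18 (mean 0.27 ± 0.17, SD, n = 3 pairs), and 1 of its 6 arrays gave a ratio below 0 (-0.14).

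Penk, the first of the peptide precursors, read 9.65, 9.89 and 9.80 in Paraxis-/- pools on its brighter probe, against 8.60, 9.27 and 9.07 in WT pools. Groups did not overlap and lay 0.38 apart. WT pools varied more (SD 0.34) than Paraxis-/- pools (SD 0.12). The pair ratios were 1.04, 0.62 and 0.73 (mean 0.80 ± 0.22, SD, n = 3 pairs), a fold of 1.74 and the widest spread of the 5 genes. The probe in the enkephalin repeats, printed above, read 7.19, 7.15 and 7.09 in Paraxis-/- pools, against 6.88, 6.99 and 6.79 in WT pools. These groups stood 0.10 apart, and the pair ratios of 0.31, 0.16 and 0.30 averaged 0.26 ± 0.09 (SD, n = 3 pairs). One of its 6 arrays was below 0 (-0.11), and its spots reached only 2.05 to 3.5 times local background. Averaging both probes brought the Penk ratio to 0.53.

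Cck had the smallest fold of the 5 and pools close together within each genotype. Its log2 level was 9.13, 9.09 and 9.06 in Paraxis-/- pools, against 8.52, 8.62 and 8.47 in WT pools. The groups were 0.44 apart. Pair ratios were 0.62, 0.47 and 0.59 (mean 0.56 ± 0.08, SD, n = 3 pairs), a fold of 1.47 with a lowest pair of 1.39-fold.

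Foxo6, the transcription factor of the group, read 8.56, 8.90 and 8.95 in Paraxis-/- pools, against 7.94, 8.15 and 8.06 in WT pools. Groups lay 0.41 apart, and the Paraxis-/- pool of pair A was the lowest of its group. The pair ratios were 0.62, 0.74 and 0.89 (mean 0.75 ± 0.14, SD, n = 3 pairs), a fold of 1.68. Foxo6 was the gene whose ratio differed most between dyes. With Paraxis-/- in Cy5 the 3 arrays gave 0.96, 0.98 and 1.096, and with Paraxis-/- in Cy3 they gave 0.28, 0.51 and 0.69. All 6 were above 0, but the dye-specific means were 1.01 and 0.49.

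**Figure D1:**
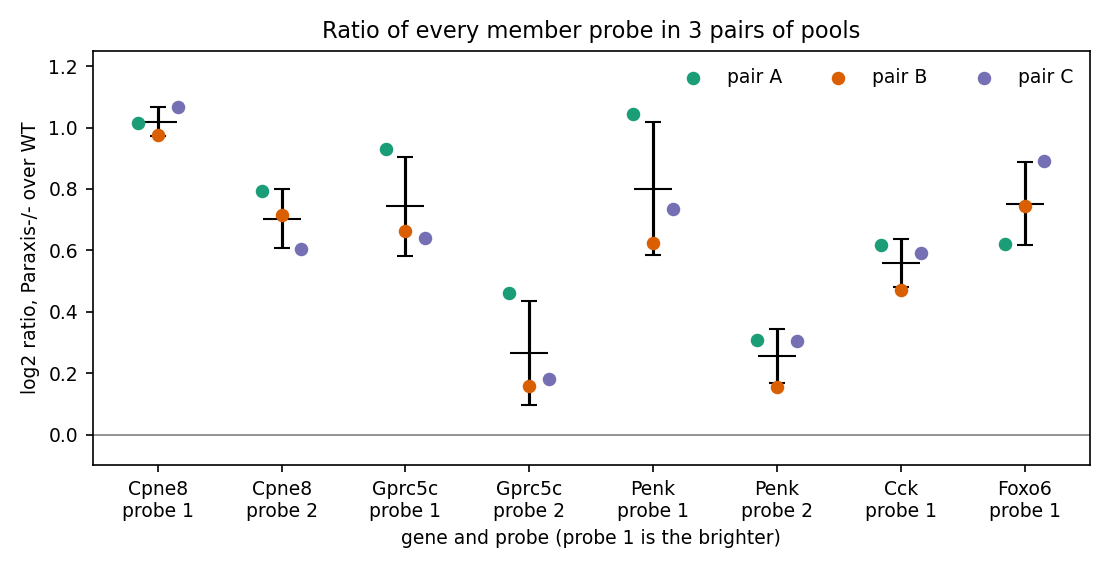
Log2 ratio of Paraxis-/- over WT for each of the 8 member probes (horizontal axis), with 1 point per pair of pools, the mean as a bar and the SD as whiskers (n = 3 pairs). All points lie above 0, and the second probes of Gprc5c and Penk sit at means of 0.27 and 0.26, below their first probes at 0.74 and 0.80.

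**Figure D2:**
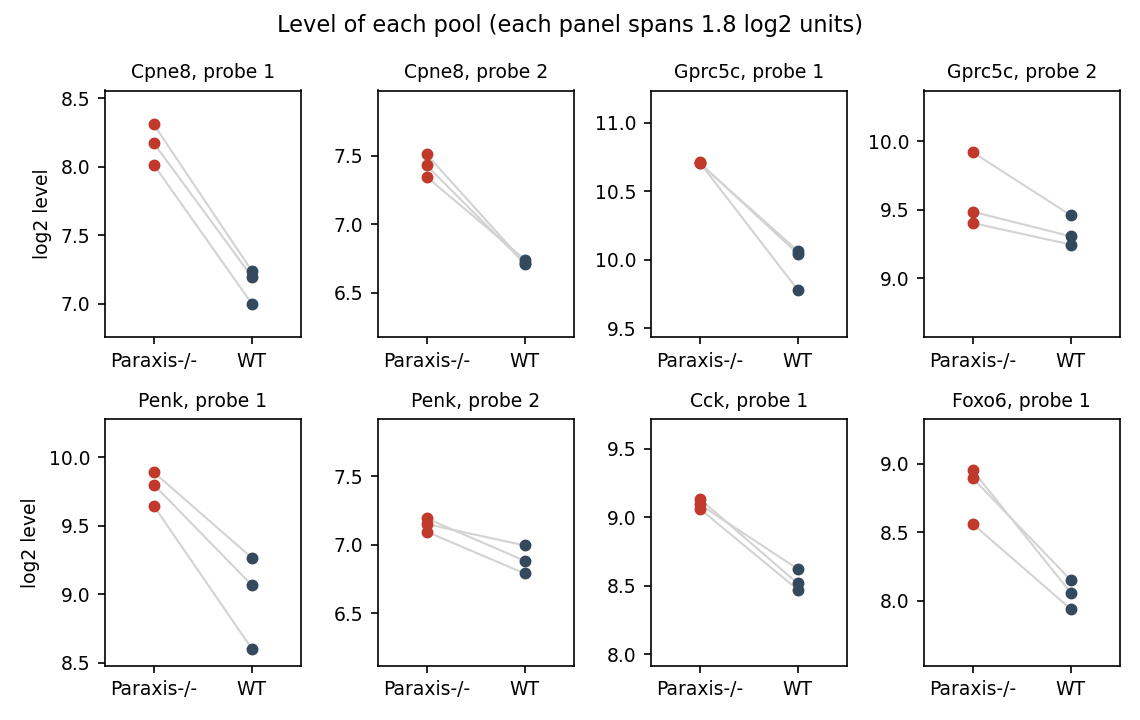
Log2 level of each of the 3 Paraxis-/- pools (left, red) and 3 WT pools (right, dark) for every member probe, with grey lines joining the pools of a pair and panels spanning the same number of log2 units. Groups overlap in the panel of the second Gprc5c probe and in no other.

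Across all member probes, 8 of 8 were higher in Paraxis-/- in all 3 pairs, which was so for 12.4% of kept probes. On all 6 arrays 6 of 8 were higher (3.31% of kept probes), and for 7 of 8 the pools did not overlap (2.86% of kept probes). By the brightest probe, pools did not overlap for 5 of 5 genes (3.1% of genes), and 4 of 5, all except Cck, were at least 1.5-fold higher in every pair (0.0675% of genes). The choice of the genes used this contrast, so nothing is read from these counts.

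Probes of the same gene did not give the same size. The brighter minus the second probe differed by 0.32 for Cpne8, 0.48 for Gprc5c and 0.54 for Penk on the log2 scale. Among 6232 genes with at least 2 kept probes the median gap was 0.08, and 4.22%, 0.786% and 0.546% of them had a larger gap than Cpne8, Gprc5c and Penk. Among the 50 genes whose brightest probe differed by at least 1.5-fold the median gap was 0.41, and 98% of these had both probes of the same sign.

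The dye effect, which the choice of genes did not use, was tested across all genes. It is the part of a ratio that changes sign with the dyes, given as the difference between dye orientations times 0.5, positive where a ratio was higher with Paraxis-/- in Cy5. It was 0.26 ± 0.05 for Foxo6 (SE, limma adjusted p = 0.0844), 0.20 ± 0.06 for Cpne8 (adjusted p = 0.161), 0.11 ± 0.07 for Gprc5c (adjusted p = 0.393), 0.10 ± 0.05 for Cck (adjusted p = 0.272) and 0.04 ± 0.04 for Penk (adjusted p = 0.588). None of the 5 passed an adjusted p of 0.05 (0.14% of genes did), and 2 of 5 had an unadjusted p under 0.05 (21.1% of genes). Averaging the dye-swapped arrays of a pair cancels this effect in the ratios above.

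**Figure D3:**
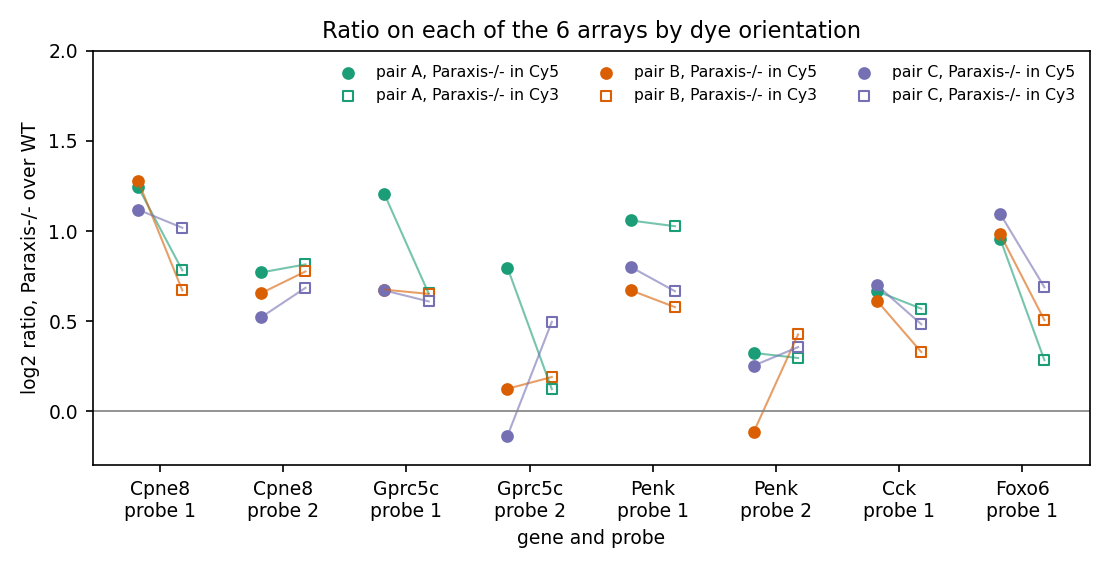
Log2 ratio of Paraxis-/- over WT on each array for the 8 member probes, with filled circles for Paraxis-/- in Cy5, open squares for Paraxis-/- in Cy3, colours for pairs A to C and lines joining the arrays of a pair. The first probes of all 5 genes are lower with Paraxis-/- in Cy3 in every pair, while 1 array each of the second Gprc5c and second Penk probes lies below 0 (-0.14 and -0.11).

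The nearest relatives of each member were set beside it. None of them passed the test, against 0.0207% of all genes. Of 8 other copines, proteins that also bind membranes in a calcium-dependent way, Cpne5 had a log2 ratio of 0.30 (limma adjusted p = 0.914) and Cpne4 one of 0.27 (adjusted p = 0.933), with all 3 pairs above 0 for both. The ratio of Cpne4 depended on the processing. It was 0.71 from Agilent's processed signals and 0.70 from the authors' deposited table, as large as that of Cck there (0.71 and 0.70). Cpne5 had 0.33 in both. Neither copine passed an adjusted p of 0.05 in these settings. By their brightest probes the other 6 copines lay between -0.05 and 0.10. Other kept probes gave 0.14 for Cpne1, 0.12 for Cpne4, and 0.03 and -0.07 for Cpne3. The second kept probe of Cpne5 gave 0.10, with pairs of 0.30, -0.12 and 0.13. Cpne6 and Cpne9 were well above background on 5 of 6 Paraxis-/- measurements, and on 3 and 4 of 6 WT measurements. Gprc5a, Gprc5b and Gprc5d, the other receptors of that family, lay between 0.00 and 0.10.

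For the opioid peptides, the precursors of dynorphin (Pdyn), of melanocortins and beta-endorphin (Pomc) and of nociceptin (Pnoc) had log2 ratios of 0.11, -0.05 and -0.04. Pnoc was well above background on 5 of 6 Paraxis-/- and 4 of 6 WT measurements. Of the opioid receptors, Oprk1, the kappa receptor, was measured at 0.10 and the nociceptin receptor Oprl1 at -0.02. The second kept probe of Oprl1 gave 0.14. The delta receptor Oprd1, on which enkephalins act, was not well above background on any measurement, and the mu receptor Oprm1 on at most 1 of 6 in either genotype. Gast, the gastrin precursor, had a ratio of 0.08. Cckbr, the receptor for gastrin and cholecystokinin, had 0.08, and Cckar, the receptor selective for cholecystokinin, was well above background on 3 of 6 measurements in both genotypes and so was not tested. In the FoxO family Foxo1 had -0.27 (adjusted p = 0.933), below 0 in 3 of 3 pairs and on both its probes. Foxo3 and Foxo4 had -0.05 and -0.06, and Foxo3 was well above background on only 3 of 6 Paraxis-/- and 4 of 6 WT measurements.

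**Figure D4:**
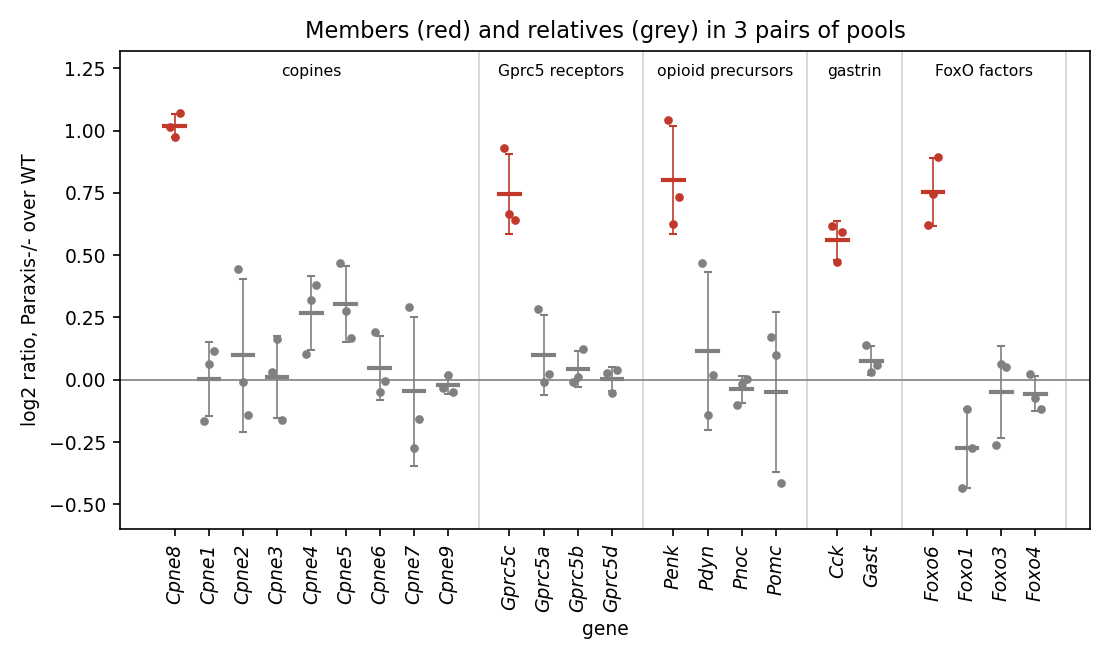
Log2 ratio of Paraxis-/- over WT for each member (red) and its tested relatives (grey), with points for the 3 pairs, bars for means and whiskers for the SD. By the brightest probe of each gene, members lie between 0.56 and 1.02, and relatives between -0.27 (Foxo1) and 0.30 (Cpne5). These are the values after loess, and Agilent's processed signals put Cpne4 higher, at 0.71.

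The pathways around the members were read from lists of 104 other genes, 96 of them tested. No list gene passed an adjusted p of 0.05 in either direction, and 12 had an unadjusted p under 0.05 (5.07% of all genes did). The median log2 ratio of all genes was 0.00. Neuropeptide processing enzymes, which cut and finish peptides such as the enkephalins and cholecystokinin, had a median of 0.04 over 14 genes. Furin, a protease that cuts precursors at basic residues, had 0.25 (adjusted p = 0.933), and Qpct, which forms pyroglutamate at peptide ends, had -0.15. The peptidases that break such peptides down had a median of -0.03 over 6 genes, with Anpep at -0.20. Of 7 granin and dense-core vesicle genes with a probe, 5 were tested, with a median of 0.07, and Scg2 and Ptprn2 were not detected on any measurement.

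Around Foxo6, 14 regulators in insulin, PI3K and Akt signalling, which acts on FoxO factors, had a median of -0.00. Sgk1, a kinase of this branch, had -0.40 (adjusted p = 0.617), and Pik3cb, a PI3K catalytic subunit, 0.26. The 19 FoxO target genes had a median of 0.10, with 7 of them higher in all 3 pairs (13.5% of all genes were). Their ratios ran from -0.53 to 0.29. The lowest was Klf2, an endothelial factor named after its value was seen, with pairs of -0.98, -0.84 and 0.24. Cdkn1a, a cell cycle inhibitor, had 0.29, Bnip3, a mitophagy gene, 0.25 and Bcl6, a repressor, 0.24 (adjusted p between 0.933 and 0.947). Around Gprc5c, 17 retinoic acid pathway genes had a median of 0.06. Aldh1a2, which synthesises retinoic acid in early mesoderm, had -0.82 (adjusted p = 0.358), lower in 3 of 3 pairs. With the slide as a block it had -0.88, a fit in which pair A stands alone on its slide. It passed with the pair as a random block over the 6 arrays (-0.82, limma adjusted p = 0.02355). That fit counts the arrays of a pair as more samples than the 3 pairs give. Aldh1a1 had 0.28 (adjusted p = 0.898).

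Markers of other cells that the dissection could hold were read in the same way, since Penk, Cck and Foxo6 are also known from neural tissue. Of 124 marker genes tested, 1 passed (0.0207% of all genes did), which was Tcf15, the gene that the genotype itself disrupts. An unadjusted p under 0.05 was found for 19 (5.07% of all genes). All 12 neuron markers with a probe were detected in both genotypes. Their mean log2 level was 8.30 to 8.44 in Paraxis-/- pools and 8.27 to 8.49 in WT pools, and their median ratios in pairs A, B and C were -0.12, 0.19 and 0.09. Neural tube markers had median ratios of -0.30, 0.24 and 0.15 and neural crest markers -0.56, 0.24 and 0.29. Single genes of these lists went other ways. Nefl, a neurofilament, had pair ratios of 0.59, 0.39 and -0.01, and Stmn2, a neuronal microtubule regulator, 0.56, 0.15 and 0.11. Ngfr, a neural crest marker, had 0.64 (adjusted p = 0.319), with 0.52, 0.64 and 0.76 in the pairs.

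Other tissues varied among pairs too. Primitive blood markers had median ratios of 0.54, 0.90 and -0.08, with mean log2 levels of 10.75 to 11.16 in Paraxis-/- pools and 10.25 to 10.76 in WT pools. Gut endoderm markers had 0.18, 0.05 and -0.03, with Afp at 4.34, 1.58 and -0.20 and Ttr not detected on any measurement. Surface ectoderm markers had 0.46, 0.09 and 0.08, endothelial markers -0.19, 0.15 and 0.03, lateral plate markers 0.06, 0.14 and -0.00, and posterior presomitic mesoderm and tailbud markers 1.05, -0.25 and 0.25. Within the lists Etv2, an endothelial and blood progenitor factor, had 1.54 (adjusted p = 0.126), Tal1 0.80 and Tbx5, a lateral plate and limb factor, 0.50. These had the smallest p of their lists. Median ratios were -0.07 for the endothelial list, 0.48 for the primitive blood list and 0.07 for the lateral plate list. Notochord and floor plate markers had 0.19, -0.01 and 0.03. The labelled tissue's own markers had 0.03, -0.43 and -0.33. Of the 14 genes of that list, 6 were lower in all 3 pairs (2358 of 19262 genes were) and 1 was higher (2608 of 19262 genes). The lower ones were Tcf15, which the genotype itself disrupts, and Tbx18 (-1.02), Aldh1a2 (-0.82), Uncx (-0.78), Pax3 (-0.49) and Foxc1 (-0.28). The higher one was Lfng, at 0.23. Tbx6 was at 0.69, with pairs of 2.43, -0.59 and 0.22. Pax3, Foxc1, Lfng and Tbx6 were named after their values were seen. Calls on some of these markers changed with the fit. Etv2 and Tbx18 passed with ratios scaled between arrays (limma adjusted p = 0.02224 and 0.03601). With the slide as a block, where pair A stands alone on its slide, they had 1.61 and -1.09. With the pair as a random block over the 6 arrays Etv2, Tal1, Uncx, Tbx18 and Ngfr all passed (limma adjusted p between 0.002894 and 0.02573). That fit counts the arrays of a pair as more samples than the 3 pairs give. The part of any of these cells in the members' ratios was not tested.

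The genes whose pattern over the 6 pools was most like each member's were found among 15363 named genes by the root mean square difference of centred log2 levels, a smaller value being more alike. Each follows the member's genotype difference by construction, so its direction is no finding. Rflna, which binds filamin, was nearest to Cpne8 (0.04), with pair ratios of 0.91, 0.96 and 1.13, followed by Maf and Afap1l2 (0.18 each). Aadat, an aminotransferase, was nearest to Gprc5c (0.08) and to Penk (0.12). After it came Cobl and Adra2a (0.12 each) for Gprc5c, and Afap1l2 and Wfdc2 (0.15 each) for Penk. Vstm2l was nearest to Cck (0.04), before Trp53inp1 and Cobl (0.10 each). For Foxo6 the nearest were Rflna (0.14), Cobl (0.15) and Tbx5 (0.16). The members differed from each other by 0.13 to 0.27. Vstm2l and Wfdc2 lie on chromosome 2, as does Tcf15, at 5.8 and 12.4 megabases from it, whereas the members lie on chromosomes 4, 9, 11 and 15.

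The upstream sequences of Cck and Cpne8, the 2 of 5 members found in the RefSeq promoter table, are shown because Paraxis belongs to a class of factors that bind CANNTG. Each is the 250 bases before the start, from GRCm38.p6, and capitals mark the motifs searched, which were CANNTG, its form CACGTG, the forkhead core GTAAACA and the cyclic AMP response element-like TGCGTCA, on both strands.
Cck (chr9:121495695-121495944, minus strand): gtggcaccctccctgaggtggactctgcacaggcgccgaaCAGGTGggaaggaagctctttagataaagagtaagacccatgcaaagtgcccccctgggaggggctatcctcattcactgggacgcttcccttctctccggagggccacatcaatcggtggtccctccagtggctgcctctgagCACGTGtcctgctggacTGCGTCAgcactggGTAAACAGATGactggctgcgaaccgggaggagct
Cpne8 (chr15:90679389-90679638, minus strand): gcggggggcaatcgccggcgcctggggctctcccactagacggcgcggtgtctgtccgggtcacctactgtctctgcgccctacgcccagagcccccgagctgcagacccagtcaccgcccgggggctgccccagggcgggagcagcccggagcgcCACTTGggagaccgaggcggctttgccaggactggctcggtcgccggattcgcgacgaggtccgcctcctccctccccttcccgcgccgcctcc
The Cck stretch held 3 matches to CANNTG, at 210, 66 and 30 bases before the start, the middle one being CACGTG. It held TGCGTCA at 49 and GTAAACA at 35 bases before the start, and this last match overlaps the CANNTG match nearest the start. The Cpne8 stretch held 1 CANNTG match, at 94 bases before the start, in a sequence of 74.4% G and C against 60.0% for Cck. Of 32851 promoters, 66.217% held CANNTG, 12.213% held at least 3, 6.021% held CACGTG, 3.166% GTAAACA and 1.747% TGCGTCA. These matches are letters in a window and show no binding.

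**Figure D5:**
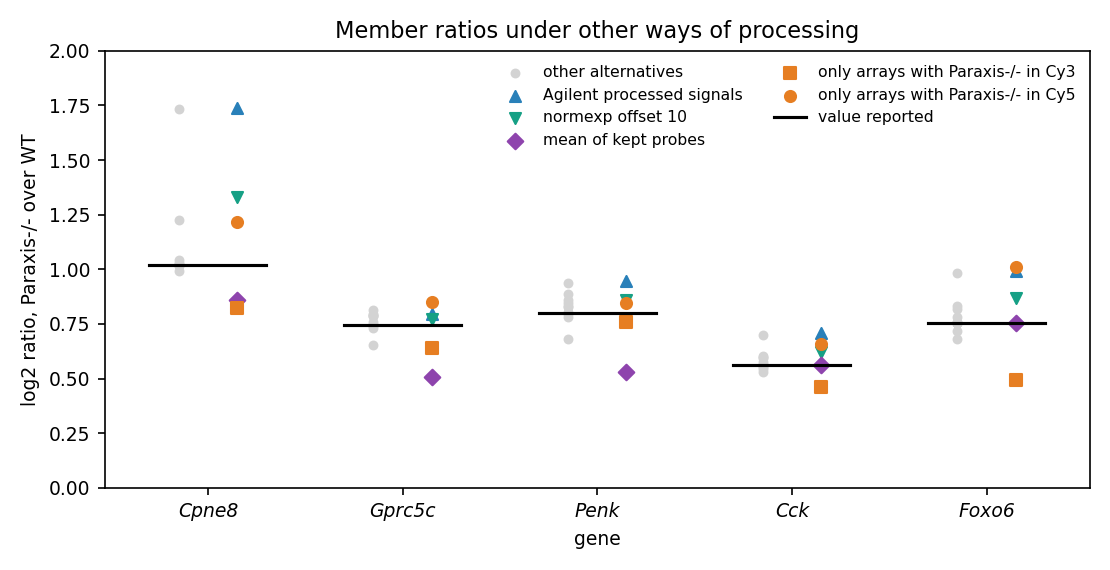
Log2 ratio of Paraxis-/- over WT of each member as reported (black line) and under 19 alternatives (points), some of them named in the legend. All points are above 0, with Cpne8 reaching 1.74 with processed signals, Penk 0.53 with the mean of its probes and Foxo6 0.49 with Paraxis-/- in Cy3 alone.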

How the data were processed

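RNA of 3 pools per genotype was compared on 6 two-colour arrays. The members and gene lists were chosen with earlier results of these data known. Spot intensity was read by the authors with Agilent Feature Extraction, version 10.7.3.1 on slide 1 and 10.5.1.1 on slide 2 per the file headers. The submitters' processing notes give 8.5.1.1 instead. The deposited values per probe are log10 ratios, Cy5 over Cy3, equal to those of the scanner output within 5e-11. Their column medians were 0, and their scale, centring and direction were thereby known.

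From the deposited intensities, median signals were background-corrected by normexp (offset 50) and normalized by loess within arrays (limma 3.58.1, R 4.3.3). The plan named mean intensities, which the columns of slide 2 do not hold, so medians were used. Loess gave no weight to 1639 control spots or to outliers, and averages left out the 438 to 620 outliers of an array. Log2 ratios were turned to Paraxis-/- over WT by the dyes in the labels, and dye swaps averaged, giving n = 3 pairs. Titles and descriptions disagree on the pools of the dye-swap arrays of pairs B and C, and titles were used. Arrays of the same title pair deviated together across genes (r of 0.38, 0.62 and 0.61, against -0.42 to -0.06 for other combinations). Separate extracts are stated for the pools, so the SD covers pools.

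A probe was kept if well above background on at least 4 of 6 measurements in either genotype (28639 probes). A gene was represented by its brightest probe. Names came from RefSeq accessions for 26690 probes, current symbols for 5189, synonyms for 952 and the files for 8343. Genes were tested two-sided in limma (lmFit, eBayes), p-values were adjusted by Benjamini-Hochberg over 19335 genes, and the code was tested on simulated data. Genes named were the members, Tcf15, their families, up to 3 genes with the smallest p in every other list, and the 3 nearest patterns per member. The number of arrays limits precision. The p-value of a member on the genotype contrast is not given. Alternatives covered background correction, normalization, filters, probe choice, blocks, dye orientation and leaving out each pair.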

Additional observations from a re-analysis of the deposited data

How the results depend on the processing

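All 5 members stayed above 0 under all 19 alternatives, from 0.82 to 1.74 for Cpne8, 0.505 to 0.85 for Gprc5c, 0.53 to 0.95 for Penk, 0.46 to 0.71 for Cck and 0.49 to 1.01 for Foxo6. They were picked as higher in all 3 pairs, and their brightest probes were above 0 on all 6 arrays. Leaving out a pair or using 1 dye orientation thus could not bring them below 0, and nothing is read from the sign. The number of genes past an adjusted p of 0.05 (4, of them 2 higher) was 18 with ratios scaled between arrays (4 higher), 7 with processed signals, 76 with the slide as a block, 40 with the pair as a random replicate block over 6 arrays (within-pair correlation -0.47), 69 over 6 arrays with no replicate block, 19 from arrays with Paraxis-/- in Cy3, 2 from those in Cy5, and 0 to 2 without 1 pair. Fits over 6 arrays count the arrays of a pair as more samples than the 3 pairs give. With the slide as a block, pair A stands alone on its slide. Without pair B Tcf15 had -5.37 and an adjusted p of 0.0868. Aldh1a2, Etv2 and Tbx18 passed with the slide block, and these with Tal1, Uncx and Ngfr with the random replicate block, at ratios within 0.1 of those reported. Genes higher in all pairs (2608) numbered 4117 with median centring and 4536 to 5312 without 1 pair, which asks for fewer pairs. Genes at least 1.5-fold higher in all pairs (13) numbered 31 with processed signals, 29 from the authors' deposited table, 32 from Paraxis-/- in Cy5, and 25 to 34 without 1 pair. Among small ratios of relatives and neighbours, Pomc turned to 0.0176 with median centring, 0.0075 with the slide block and 0.0848 with Paraxis-/- in Cy5. Without 1 pair it lay between -0.16 and 0.14, Pdyn between -0.0629 (without A) and 0.2434 and Oprk1 between -0.0849 (without A) and 0.2986, and the marker Tbx6 between -0.1845 (without A) and 1.3242 (without B). Bcl6 turned to -0.0058 and Trak1 to -0.0796 with Paraxis-/- in Cy3, and Cckbr to -0.0342 and Cd300a to -0.16 with Paraxis-/- in Cy5; the causes were not tested. The fit on mean intensities was not run. Signal over background limits the second probes of Cpne8 and Penk, both within 5.56 times their local background.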

Other observations

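The tested genes nearest to the members on their chromosomes were read after their values were seen. They lay 15.3 to 705 kilobases away, so some are not close neighbours. Of the nearest tested gene on each side of the 5 members, 10 in all, none passed the limma adjusted p of 0.05. Their log2 ratios lay between -0.55 (Syt10, a synaptotagmin 705 kilobases from Cpne8, adjusted p = 0.95) and 0.15. The closest was Trak1, a mitochondrial transport adaptor 15.3 kilobases from Cck, at 0.10 (adjusted p = 0.953). Cd300a, an immune receptor 35 kilobases from Gprc5c, was at 0.03 (adjusted p = 0.986).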
